A study of Mus musculus with 42 samples.

Results

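A group of 10 genes that are widely used to mark astrocytes was followed through RNA sequencing of cultured mouse hippocampal neurons. They are *Gfap*, *Aqp4*, *Gja1*, *Aldh1l1*, *Acsbg1*, *Fgfr3*, *Slc1a2*, *Slc1a3*, *Ntsr2* and *Aldoc*. They are known markers, taken as a group with earlier results of these data known, and all 10 were found among the 55471 gene entries of the deposited count table. The cultures came from NMRI mouse embryos of day 16, were plated in medium with horse serum and then kept in maintenance medium with B27 supplement. Control cultures (n = 6) received vehicle at 6 to 7 days in vitro. BDNF cultures (n = 6) received brain-derived neurotrophic factor, a neuronal growth factor, at 50 ng/ml for 20 min at the same age and were then washed. Control EV cultures (n = 3) were exposed for 24 h to small extracellular vesicles (EVs) shed by vehicle-treated cortical neurons, and BDNF EV cultures (n = 3) to vesicles from BDNF-treated cortical neurons. The sources used here do not state how long after BDNF the hippocampal cultures were lysed. The 18 libraries form 6 numbered sets: set 1 is batch a, sets 2 and 3 are batch b, sets 4 and 5 are batch c and set 6 is batch d. EV libraries exist for sets 1 to 3. The labels do not say what a batch is, and they give each set a sequencing lane code of its own, so lane and set cannot be told apart.

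Astrocytes are glial cells that clear glutamate from the synaptic cleft, buffer potassium and water, couple to each other through gap junctions and supply neurons with metabolites. BDNF acts mainly through the receptor TrkB, and astrocytes carry chiefly a truncated form of it. Embryonic neuronal cultures without a block on cell division also contain glial cells and their precursors, so that marker transcripts of astrocytes are measured together with those of neurons. The markers fall into 4 functional kinds. Glial fibrillary acidic protein (*Gfap*) is an intermediate filament protein, aquaporin-4 (*Aqp4*) a water channel and connexin 43 (*Gja1*) the main gap junction protein of astrocytes. *Aldh1l1* encodes a folate enzyme, *Acsbg1* an enzyme that activates long-chain fatty acids and *Aldoc* the aldolase of brain glycolysis. *Slc1a2* (GLT-1) and *Slc1a3* (GLAST) encode the glial glutamate transporters, and *Fgfr3* and *Ntsr2* encode a fibroblast growth factor receptor and a neurotensin receptor. *Fgfr3* and *Slc1a3* are also expressed by neural progenitors, and *Slc1a2* transcript is also found in some hippocampal neurons.

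The promoters of 5 markers that changed after BDNF are shown because these genes moved in opposite directions. Each runs from 250 bases before to 50 bases after a RefSeq start in GRCm38.p6, 5′ to 3′ along the gene's strand. Capitals mark the CCAAT box (CCAAT), the core of a cAMP response element (TGACG) and the AP-1 site (TGANTCA), on either strand. The motifs were picked with the sequences in view, from 7 that were searched. *Gfap* is at chr11:102897151-102897450 (minus strand), *Gja1* at chr10:56377050-56377349 (plus), *Aldh1l1* at chr6:90550543-90550842 (plus), *Acsbg1* at chr9:54661836-54662135 (minus) and *Fgfr3* at chr5:33721474-33721773 (plus, the outer of 2 listed starts).
Gfap: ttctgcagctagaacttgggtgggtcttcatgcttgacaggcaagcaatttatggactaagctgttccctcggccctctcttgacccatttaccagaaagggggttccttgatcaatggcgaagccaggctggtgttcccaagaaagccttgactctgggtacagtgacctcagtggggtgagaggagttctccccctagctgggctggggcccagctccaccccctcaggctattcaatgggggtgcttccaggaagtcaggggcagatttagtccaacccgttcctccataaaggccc
Gja1: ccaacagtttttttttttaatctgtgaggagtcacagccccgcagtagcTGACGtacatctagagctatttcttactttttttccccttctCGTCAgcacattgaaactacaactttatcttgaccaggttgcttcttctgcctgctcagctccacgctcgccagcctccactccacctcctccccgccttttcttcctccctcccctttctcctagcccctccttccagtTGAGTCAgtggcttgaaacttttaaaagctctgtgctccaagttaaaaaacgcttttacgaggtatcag
Aldh1l1: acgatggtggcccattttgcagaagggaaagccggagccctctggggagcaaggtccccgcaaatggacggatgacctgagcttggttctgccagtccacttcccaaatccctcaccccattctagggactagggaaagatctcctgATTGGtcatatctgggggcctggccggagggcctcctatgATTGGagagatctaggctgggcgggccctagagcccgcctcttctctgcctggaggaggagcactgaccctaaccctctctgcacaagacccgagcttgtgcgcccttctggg
Acsbg1: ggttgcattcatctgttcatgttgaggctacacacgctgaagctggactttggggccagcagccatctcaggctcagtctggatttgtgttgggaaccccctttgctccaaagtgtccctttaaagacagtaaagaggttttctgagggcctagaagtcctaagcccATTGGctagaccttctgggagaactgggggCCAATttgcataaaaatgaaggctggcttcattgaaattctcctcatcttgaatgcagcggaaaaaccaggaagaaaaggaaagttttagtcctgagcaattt
Fgfr3: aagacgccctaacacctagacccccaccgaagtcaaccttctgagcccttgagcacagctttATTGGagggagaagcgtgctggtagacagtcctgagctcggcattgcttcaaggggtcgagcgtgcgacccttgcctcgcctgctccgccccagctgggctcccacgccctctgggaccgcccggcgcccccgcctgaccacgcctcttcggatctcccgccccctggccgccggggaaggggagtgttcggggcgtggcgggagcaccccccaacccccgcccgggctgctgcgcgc

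A CCAAT box lies in all 3 promoters of markers that rose, with 2 matches in *Aldh1l1*, 2 in *Acsbg1* and 1 in *Fgfr3*, the latter not in the window of the inner start, and in neither promoter shown of a marker that fell. It lies in 37.4% of the 32851 promoters in the reference, so such a match is common. The *Aldh1l1* matches begin 103 and 63 bases before the start, and those of *Acsbg1* 83 and 53 bases before it. *Gja1* has 2 cores of the cAMP response element and 1 AP-1 site, and these motifs occur in 20.8% and 7.81% of all promoters. The *Gfap* window holds none of the 3 motifs. Among markers that did not pass the test, *Slc1a3* has 3 CCAAT boxes and *Slc1a2*, *Ntsr2* and *Aldoc* have none. Of the other motifs searched, the GC box (GGGCGG, in 35.7% of promoters) lies in the windows of *Aldh1l1* and *Fgfr3* and the STAT motif (TTCNNNGAA, 8.3%) in those of *Gfap* and *Acsbg1*, while the TATA box (TATAAA, 13.6%) and the full palindrome TGACGTCA (1.79%) lie in none of the 5. A promoter was listed for 9 of the 10 markers and not for *Aqp4*, which fell. The window of *Slc1a2* begins at base 102706188, inside the gene, which spans 102658239 to 102790784. These matches describe letters only and are no evidence of binding.

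The libraries held 16274937 to 36835780 counts. Levels are given as CPM, the count of a gene scaled to a common library total with TMM factors, and they are not corrected for transcript length, so they are compared between libraries and not between genes. The cultures carried strong neuronal transcripts, with *Map2* at 1653 to 2221 CPM and *Rbfox3* (NeuN) at 78.4 to 106 CPM. The 10 astrocyte markers together made up 2345 to 3165 CPM. The defining microglial transcripts *Cx3cr1*, *P2ry12* and *Tmem119* had 0 to 5 counts in any library, while *Csf1r* and *Aif1*, also microglial, had 7.97 to 10.5 and 2.74 to 7.49 CPM. Oligodendrocyte lineage genes were present, with *Pdgfra* at 215 to 339 CPM, as were transcripts of dividing cells, with *Mki67* at 22.1 to 87.6 CPM.

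After BDNF the astrocyte markers divided into 3 that fell, 3 that rose and 4 that did not pass the test. *Gja1*, *Gfap* and *Aqp4* fell, and *Aldh1l1*, *Acsbg1* and *Fgfr3* rose. The called changes were small, between −0.39 and 0.30 on the log2 scale. The control and BDNF groups overlapped in CPM for all 10 markers, beside 2.98% of all genes whose groups did not. Across the 10 markers the median log2 fold change was −0.03, against −0.0025 over the 17892 genes tested. A change was called at a Benjamini-Hochberg adjusted p under 0.05 in edgeR's quasi-likelihood test with batch as a covariate. BDNF changed many genes in these cultures: 13.6% of the tested genes were called, 7.36% as higher and 6.26% as lower. The marker calls rest on comparing libraries within batches: without the batch term edgeR called 0 of the 10, with 2 at an unadjusted p under 0.05 and the lowest adjusted p, that of *Fgfr3*, at 0.094. The summed level of the 10 markers had a median of 3011 CPM in control (2385 to 3125) and 2942 CPM after BDNF (2345 to 3128), and was higher after BDNF in 3 of 6 sets. In bulk libraries, fewer cells of a type and less RNA per cell cannot be told apart. Since the labels do not tie replicates to separate cultures, p-values here reflect only the spread between these libraries, which may be technical.

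**Figure D1:**
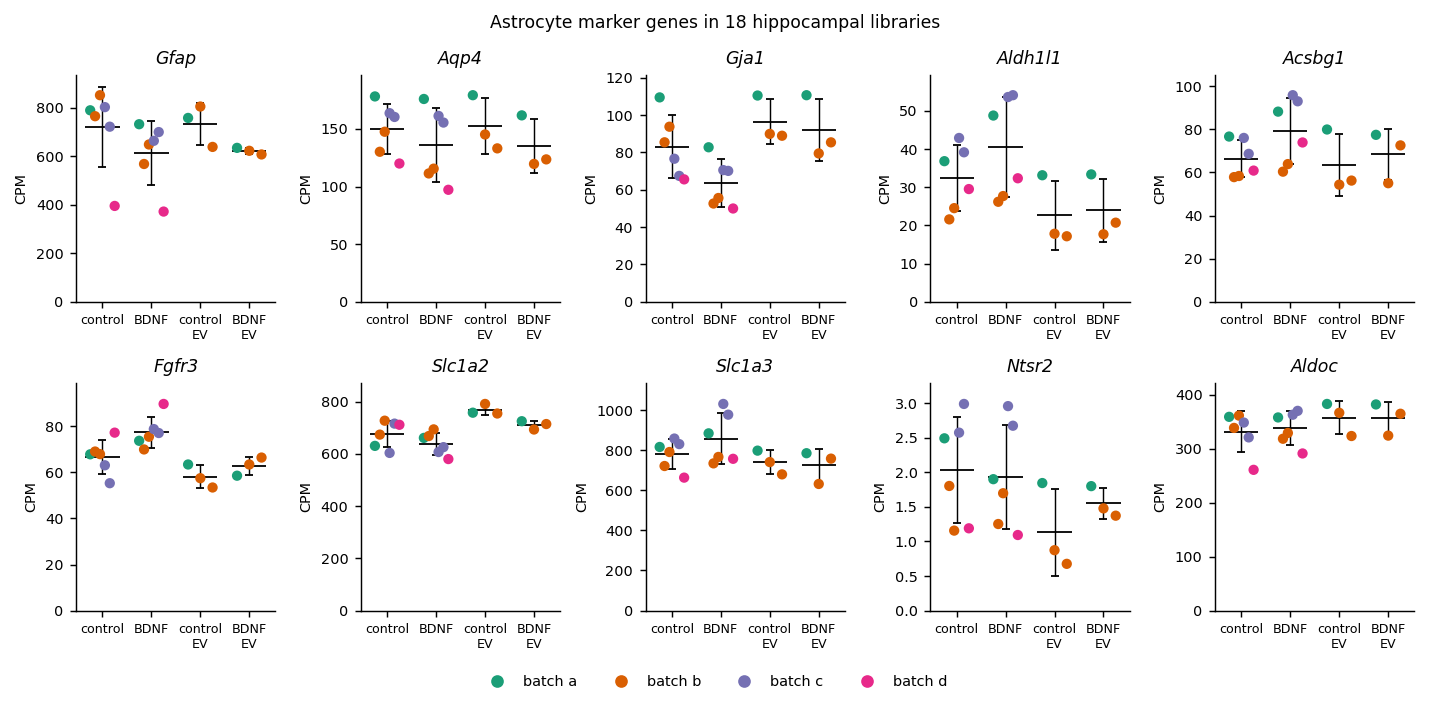
Level of each astrocyte marker (CPM, linear axis from 0) in every library, by group and coloured by batch, with the group mean and SD (n = 6, 6, 3 and 3). The control and BDNF groups overlap for all 10 genes, and *Gfap* is lowest in both libraries of batch d, at 395 and 372 CPM.

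*Gja1*, the connexin of astrocytic gap junctions, fell most. Its level in the 6 control libraries ran from 65.6 CPM through a median of 81.0 to 109 CPM, and in the 6 BDNF libraries from 50.0 through 62.8 to 82.7 CPM. The groups overlap. Controls were highest in batch a and lowest in batch d, and within a set BDNF was lower in 5 of 6. The fitted log2 fold change was −0.39 ± 0.08 (SE), a level 0.765 times the control (95% interval 0.677 to 0.864), with an adjusted p of 0.00538 in edgeR's quasi-likelihood test.

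*Gfap*, the filament protein, ranged in control from 395 CPM through a median of 778 to 852 CPM. After BDNF it ranged from 372 through 656 to 732 CPM. BDNF was lower than its control in 6 of 6 sets, by between 0.04 and 0.43 on the log2 scale, while the pooled groups overlap. The fitted change was −0.22 ± 0.06 (edgeR adjusted p = 0.0151). *Aqp4*, the water channel of astrocyte endfeet, ranged from 120 through 154 to 178 CPM in control and from 97.2 through 135 to 176 CPM after BDNF. It too was lower in 6 of 6 sets, although sets 1, 4 and 5 differed by less than 0.05. Its fitted change of −0.16 ± 0.05 had an edgeR adjusted p of 0.0204. This call was lost when any one of 5 libraries was left out: control of set 3 (edgeR adjusted p = 0.0565), BDNF of set 2 (0.0583) or set 3 (0.0502), or either library of set 6 (0.0892).

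The folate enzyme gene *Aldh1l1* rose most. Its control libraries ran from 21.6 CPM through a median of 33.2 to 42.9 CPM, and its BDNF libraries from 26.2 through 40.6 to 54.1 CPM. The groups overlap, batch b was low in both, and every set was higher after BDNF. The fitted change was 0.30 ± 0.05, a level 1.23 times the control (95% interval 1.14 to 1.33), with an edgeR adjusted p of 0.000231. The lipid enzyme gene *Acsbg1* ranged from 57.8 through 64.7 to 76.6 CPM in control and from 60.3 through 81.0 to 95.8 CPM after BDNF. It was higher in 6 of 6 sets, least in batch b, and its fitted change was 0.24 ± 0.06 (edgeR adjusted p = 0.00726). *Fgfr3* ranged from 55.3 through 67.9 to 77.3 CPM in control and from 69.97 through 76.3 to 89.7 CPM after BDNF. It was higher in 6 of 6 sets, by 0.02 to 0.48 on the log2 scale, with a fitted change of 0.22 ± 0.05 (edgeR adjusted p = 0.00685).

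The glutamate transporters did not pass the test. *Slc1a2* ranged from 604 through 693 to 727 CPM in control and from 580 through 644 to 694 CPM after BDNF, and it was lower in 4 of 6 sets. Its fitted change was −0.08 ± 0.05 with a 95% interval of −0.18 to 0.01 (edgeR adjusted p = 0.253). *Slc1a3* ranged from 663 through 803 to 858 CPM in control and from 734 through 825 to 1030.4 CPM after BDNF, and was higher in 5 of 6 sets. Its fitted change was 0.13 ± 0.05 (edgeR adjusted p = 0.0682). This gene sits close to the threshold: it passed without the control library of set 3 (edgeR adjusted p = 0.0187), without the BDNF library of set 2 (0.0347), without the filter on low counts (0.0121) and by DESeq2 (0.0499). *Aldoc*, the glycolytic enzyme, had a median of 344 CPM in both groups, and its interval of −0.06 to 0.12 includes no change (edgeR adjusted p = 0.705). Its relative *Aldoa* rose by 0.30 ± 0.04 (edgeR adjusted p = 1.25e-05). The sources used here do not say how reads common to such relatives were counted. The neurotensin receptor gene *Ntsr2* was scarce, with 19 to 59 counts in control and 27 to 55 after BDNF, and its interval of −0.38 to 0.20 is too wide at this depth to detect changes of the size seen in the other markers.

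**Figure D2:**
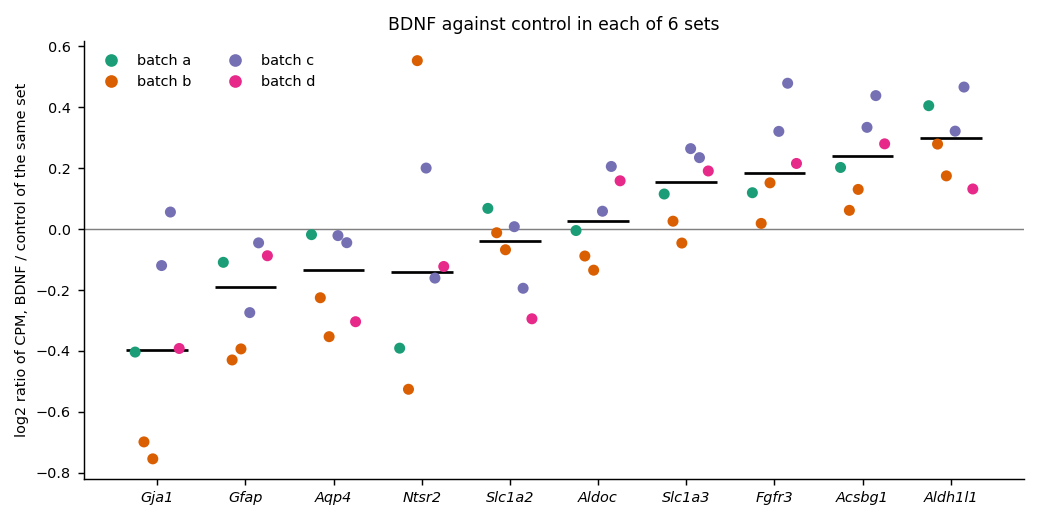
Log2 ratio of CPM, BDNF over the control of the same set, for each marker in 6 sets coloured by batch, with the median as a line. *Aldh1l1*, *Acsbg1* and *Fgfr3* lie above 0 in all 6 sets and *Gfap* and *Aqp4* below 0 in all 6, while *Gja1* spans −0.75 to 0.06.

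The BDNF effect differed between batches for *Gja1*. Fitting the effect in each batch within 1 model, *Gja1* changed by −0.71 ± 0.07 in batch b and by −0.03 ± 0.07 in batch c. In CPM, the controls of batch b stood at 85.4 and 93.7 and their BDNF partners at 52.6 and 55.6, whereas the controls of batch c stood at 76.6 and 67.4 and their partners at 70.5 and 70.1. Batch c thus shows overlapping values and batch b a clear gap. The difference between the batches was 0.67 ± 0.10 with an edgeR adjusted p of 0.0036, and *Gja1* was the 1 marker of 10 past the threshold, against 0.520% of all genes. In batches a and d, with 1 library a group each, its change was −0.44 and −0.39. Over all genes the control of set 4, in batch c, stood apart from the other controls. Its chi-square of counts per gene was 33.5 to 80.1 against them, and they gave 6.91 to 25.5 among themselves. The part of this library in the batch c values was not tested.

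The marker calls of the separate batches also differed. In batch b *Gja1*, *Gfap* and *Aqp4* fell and *Aldh1l1* rose, where 6.60% of genes were called. In a fit of the batch b libraries alone *Aldh1l1* did not pass (0.24, edgeR adjusted p = 0.186), which left 3 markers that fell and 0 that rose, while batch c alone gave 4 that rose and 0 that fell. In batch c no marker fell and *Aldh1l1*, *Acsbg1*, *Fgfr3* and *Slc1a3* rose, where 6.10% of genes were called. Batches a and d hold 1 library a group, so their tests borrow the spread of the other batches and assume that the lone libraries vary alike. On that assumption *Aqp4* and *Gja1* were called lower in batch d (5.54% of genes called) and *Gja1* in batch a (1.11%). The fitted effect was higher in batch c than in batch b for 9 of 10 markers, *Slc1a2* being the exception, while 50.0% of all genes were higher. *Fgfr3* changed by 0.09 ± 0.07 in batch b and 0.40 ± 0.08 in batch c, but this difference did not pass the test (edgeR adjusted p = 0.178). *Gfap* changed by −0.39 ± 0.09 in batch b and −0.16 ± 0.09 in batch c (edgeR adjusted p of the difference 0.421). No set shares a lane code with another, and the part of lane or batch in these values was not tested.

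**Figure D3:**
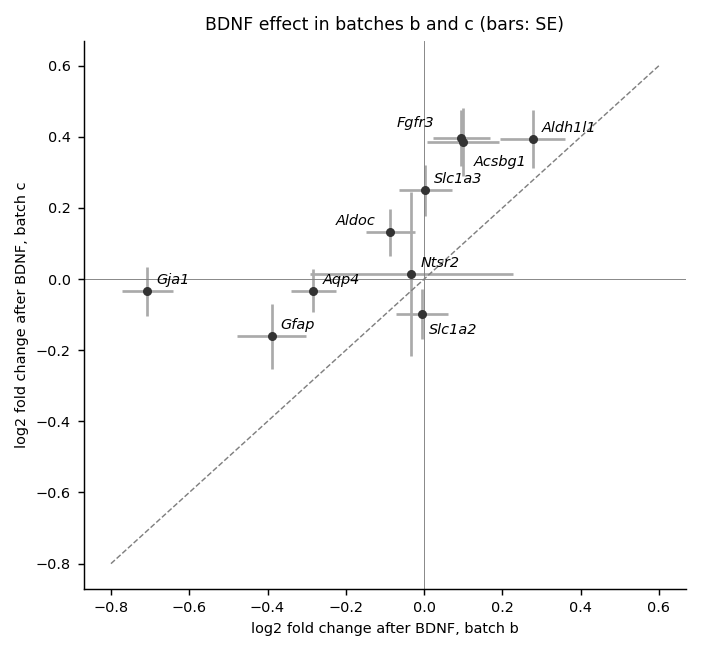
Fitted log2 fold change after BDNF in batch b (horizontal) and batch c (vertical), 2 libraries a group in each batch, with SE bars; the dashed line marks equal effects. Of the 10 markers, 9 lie above the line, and *Gja1* lies farthest from it, at −0.71 in batch b and −0.03 in batch c.

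Other genes of astrocytes were called about as often as all genes. Of 45 further astrocyte genes, 43 were tested, 3 rose, 3 fell and 37 did not pass, a share called of 14.0% beside 13.6% of all genes, and the median log2 fold change was 0.0035. *Kcnj10*, the potassium channel Kir4.1 that shares the endfoot with *Aqp4*, rose by 0.31 ± 0.04 (edgeR adjusted p = 7.73e-06), and *Gpc4*, which encodes the secreted synapse-promoting glypican 4, by 0.26 ± 0.06 (0.00256). *Chrdl1*, which encodes another secreted astrocyte factor that acts on synapses, changed by −0.41 ± 0.09 (edgeR adjusted p = 0.00205). The chaperone gene *Clu* changed by −0.24 ± 0.08 (edgeR adjusted p = 0.0497), a call lost in 10 of the 12 fits that leave out 1 library and with the set as a replicate block (0.0718). Among 13 genes of endfoot complexes and junctions, 12 were tested and *Kcnj10*, counted above, was the 1 gene called (8.33%, below the share of all genes).

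Of 31 genes linked with reactive astrocytes, 23 were tested, 4 rose and none fell, with a median of 0.03 and a share called of 17.4%, close to the 13.6% of all genes. *S100a10* rose from 5.82 ± 0.68 to 9.27 ± 2.14 CPM (SD, n = 6), a fitted change of 0.65 ± 0.10 (edgeR adjusted p = 4.18e-05). *Tm4sf1* changed by 0.46 ± 0.15 (edgeR adjusted p = 0.0467), a call lost in 7 of the 12 fits that leave out 1 library, with the replicate block (0.0589) and by DESeq2 (0.0776). Of the list, 8 genes lay below the filter on low counts, the classical reactive marker *Lcn2* among them. Of 18 genes of the glutamate-glutamine cycle and lactate shuttle, 16 were tested, 3 rose and none fell (18.8% called): *Pcx*, the pyruvate carboxylase gene of astrocytes, rose by 0.39 ± 0.05 (edgeR adjusted p = 1.49e-05) and the aminotransferase gene *Got1* by 0.18 ± 0.04 (0.00316). Of 20 relatives of the markers, 17 were tested, 2 rose and 1 fell (17.6% called). The neurofilament gene *Nefl*, which is counted again among the neuron markers below, rose by 0.37 ± 0.04 (edgeR adjusted p = 8.67e-07). The relative that fell, the connexin gene *Gjc1* (−0.17 ± 0.06, edgeR adjusted p = 0.0379), lost its call with the replicate block (0.0585), by DESeq2 (0.0577), without the filter (0.0522), with the 2 groups alone (0.0653) and in 8 of the 12 fits that leave out 1 library.

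Transcripts of other cell types and of dividing cells moved in the same libraries. Of 12 genes of radial glia and progenitors, 4 rose, 1 fell and 7 did not pass (41.7% called). The 1 that fell was *Prom1* (−0.19 ± 0.05, edgeR adjusted p = 0.0189). Its call was lost in 2 of the 12 fits that leave out 1 library. *Mki67*, a marker of cycling cells, rose from 35.4 ± 8.2 to 62.5 ± 20.5 CPM (SD, n = 6; log2 fold change 0.79 ± 0.10, edgeR adjusted p = 0.000142), and *Top2a*, the topoisomerase gene of dividing cells, rose by 0.67 ± 0.09 (0.000202). The summed level of this list was 2770 to 3089 CPM in control and 2867 to 3641 CPM after BDNF, and higher in 4 of 6 sets. Of 15 neuron markers 7 rose and 4 fell (73.3% called), with *Slc17a7*, the vesicular glutamate transporter gene, rising by 0.43 ± 0.05 (edgeR adjusted p = 1.04e-06) and *Tubb3* changing by −0.27 ± 0.07 (0.0104). The sum of the neuron markers was 8105 to 9173 CPM in control and 7919 to 9101 CPM after BDNF.

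Of 10 oligodendrocyte lineage genes 3 rose and 2 fell (50.0% called). *Olig1* rose by 0.20 ± 0.05 (edgeR adjusted p = 0.00466), while the myelin gene *Mog* changed by −0.48 ± 0.08 (0.000306). The list summed to 927 to 1095 CPM in control and 1022 to 1273 CPM after BDNF. Of 10 fibroblast and vascular genes 8 were tested, 2 rose and 1 fell (37.5% called). *Acta2* varied widely, at 8.48 ± 6.66 CPM in control and 13.7 ± 12.4 CPM after BDNF (SD, n = 6). Its fitted change was 0.58 ± 0.14 (edgeR adjusted p = 0.008), while the matrix gene *Dcn* changed by −0.67 ± 0.04 (5.01e-11). This list summed to 101 to 137 CPM in control and 76.8 to 136 CPM after BDNF, and was higher in 1 of 6 sets. Of 10 microglial genes 2 were tested and of 6 ependymal genes 4, none was called by edgeR, none had an unadjusted p under 0.05, and their sums stood at 12.8 to 17.7 and 12.6 to 66.9 CPM in control and 13.7 to 16.2 and 13.6 to 71.4 CPM after BDNF. Within batch b alone *Gpc4* (0.083), *Top2a* (0.26), *Tubb3* (−0.064), *Olig1* (0.056), *Mog* (−0.46) and *Acta2* (0.35) did not pass the test. *Tm4sf1* (0.14) and *Gjc1* (−0.094) did not pass there either. Within batch c alone *Chrdl1* (−0.23), *Prom1* (−0.039), *Got1* (0.10), *Clu* (−0.041), *Tm4sf1* (0.55) and *Gjc1* (−0.078) did not pass. The part of these cells in the changes of the astrocyte markers was not tested.

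**Figure D4:**
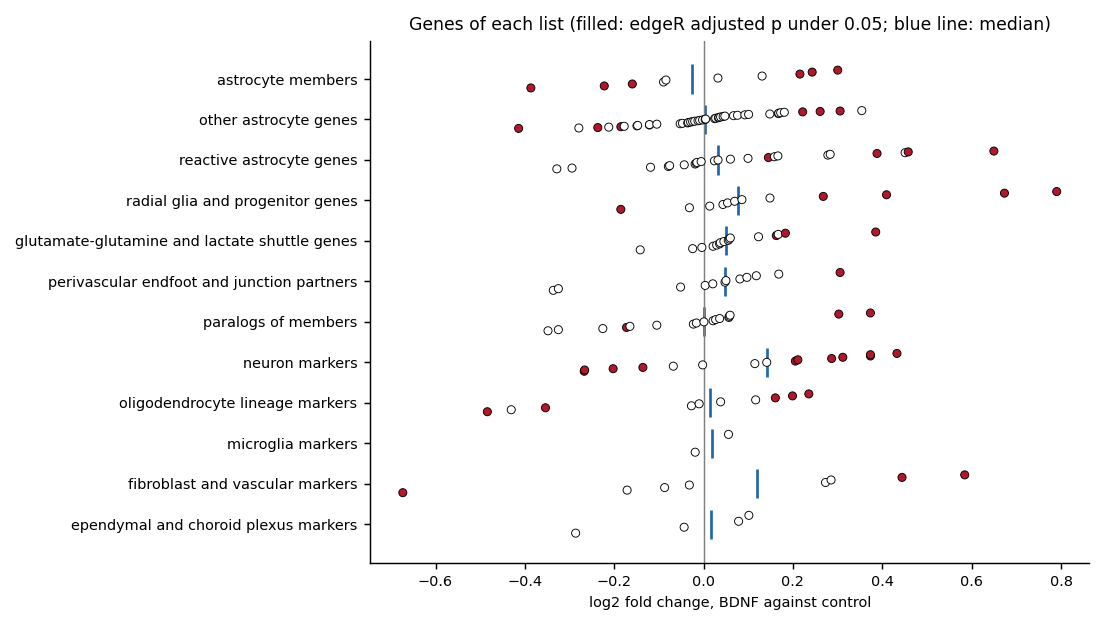
Log2 fold change, BDNF against control, of each tested gene in 12 lists; filled points have an edgeR adjusted p under 0.05 and the blue line is the list's median. The astrocyte markers and the other astrocyte genes lie on both sides of 0, with medians of −0.03 and 0.0035.

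Exposure to vesicles left all 10 markers below the threshold. In control EV against control 0.0335% of genes were called, in BDNF EV against control 0.0224% and in BDNF EV against control EV 0%, where 1502 genes had an unadjusted p under 0.05 and DESeq2 called 3. No marker was called by edgeR in these comparisons, while 4, 3 and 3 markers had an unadjusted p under 0.05 and DESeq2 called 0, 1 and 0. Of the genes of the 12 lists edgeR called none in these comparisons, although up to 13 genes of a list had an unadjusted p under 0.05, and DESeq2 called at most 1 gene of a list. The EV comparisons with control use the same control libraries as the BDNF comparison, so their values are set side by side only.

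*Gfap* measured 758, 805 and 639 CPM in the control EV libraries of sets 1 to 3 and 635, 623 and 608 CPM in the BDNF EV libraries. The control libraries of these sets measured 790, 765 and 852 CPM. All 3 BDNF EV values lie below all 3 control EV values and below these 3 controls, but above the control of set 6. After direct BDNF the fitted change over 6 sets was −0.22 ± 0.06. In batches a and b alone, which hold the EV libraries, direct BDNF gave −0.31 (edgeR adjusted p = 0.0515). For BDNF EV against control the fitted change was −0.33 ± 0.08, lower in 3 of 3 sets (edgeR adjusted p = 0.255). Against control EV it was −0.24 ± 0.08 (edgeR adjusted p = 0.503). The comparison with control passed by DESeq2 (adjusted p = 0.0239), in edgeR with the libraries of these 2 groups alone (0.00108) and in edgeR without the filter on low counts (2.12e-06), and the comparison with control EV passed without that filter (0.026).

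*Slc1a2* measured 758, 791 and 755 CPM in control EV, above all 6 controls, and 725, 693 and 714 CPM in BDNF EV, below all 3 control EV libraries. The fitted changes were 0.14 ± 0.06 for control EV against control (edgeR adjusted p = 0.804) and −0.11 ± 0.06 for BDNF EV against control EV (0.653). *Gfap* and *Slc1a2* were the 2 of 10 markers whose EV groups did not overlap, where the groups of 9.22% of all genes did not overlap and 0% were called. Between control EV and control, *Slc1a2* was the 1 such marker, beside 2.73% of all genes. *Aqp4* measured 179, 145 and 133 CPM in control EV and 162, 120 and 124 CPM in BDNF EV, lower in 3 of 3 sets, with overlapping groups and a fitted change of −0.18 ± 0.06 (edgeR adjusted p = 0.509).

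*Aldh1l1* measured 33.1, 17.8 and 17.2 CPM in control EV and 33.4, 17.7 and 20.7 CPM in BDNF EV, beside 36.8, 21.6 and 24.5 CPM in the controls of these sets. Both EV groups were lower than control in 3 of 3 sets, with fitted changes of −0.30 ± 0.07 (edgeR adjusted p = 0.592) and −0.21 ± 0.07 (0.457). The former passed without the filter on low counts (edgeR adjusted p = 0.0214). *Gja1*, which fell after BDNF itself, measured 110, 89.9 and 88.9 CPM in control EV and 111, 79.4 and 85.4 CPM in BDNF EV, and all EV comparisons of this gene had intervals that include 0. These intervals come from the fit of 18 libraries, which assumes 1 BDNF effect for all batches, though batches c and d hold no EV library. For BDNF EV against control this fit gave 0.03 ± 0.11, and batches a and b alone gave −0.07. *Ntsr2* had 15 to 33 counts in control EV and 29 to 37 in BDNF EV. Its fitted changes of −0.70 ± 0.22 against control and 0.50 ± 0.24 between the EV groups did not pass the test (edgeR adjusted p of 0.782 and 0.583). *Fgfr3*, *Acsbg1*, *Slc1a3* and *Aldoc* ranged over 53.5 to 66.5, 54.3 to 79.9, 631 to 798 and 324 to 383 CPM in the 6 EV libraries.

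**Figure D5:**
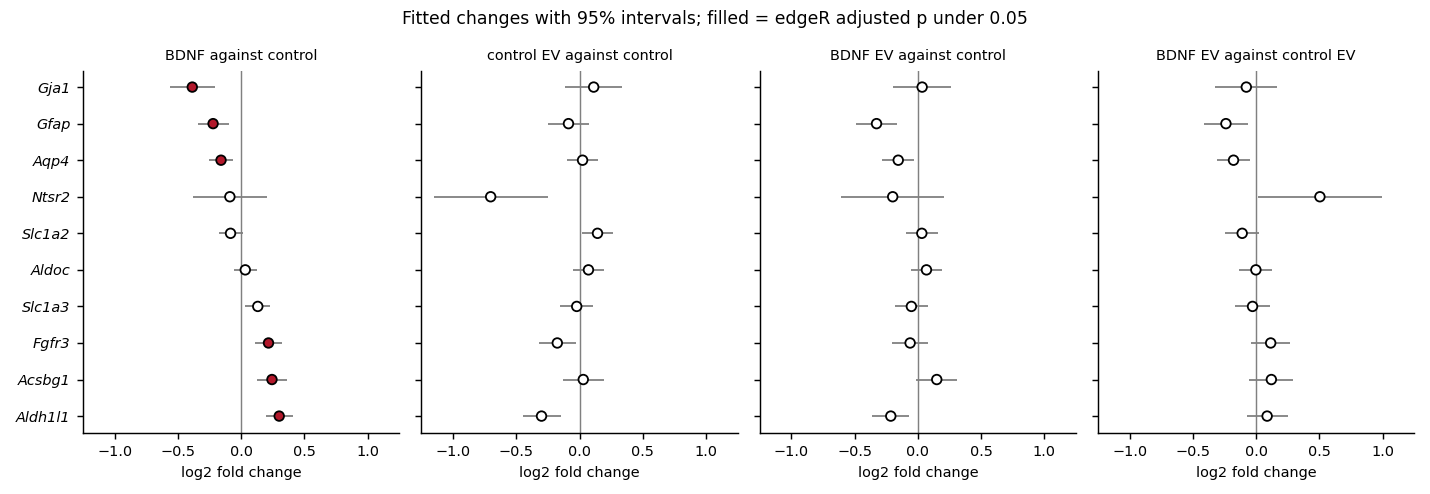
Fitted log2 fold change of each marker with its 95% interval in 4 comparisons; filled points have an edgeR adjusted p under 0.05. Filled points appear only for BDNF against control, where 6 of 10 markers were called, and the intervals of *Ntsr2* are the widest.

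The genes whose levels most resembled the mean of the 10 markers over the 18 libraries were sought by Pearson's r of log2(CPM + 1), with batch means removed. Among the closest were *Cybrd1* (r = 0.904), *Lamb2* (0.893), *Gm17134*, *Erbb2*, *Dcxr*, *Emx2*, *Axl*, *2810459M11Rik* and *Pbxip1* (0.858). *Axl*, which encodes a phagocytic receptor, stands in the list of further astrocyte genes. With batch means kept, *Pbxip1* came first (0.961), followed by *Mlc1* (0.949), an endfoot membrane protein gene. The libraries share batch, set and treatment, so these values only describe the 18 libraries.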

How the data were processed

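Gene libraries were made with the TruSeq RNA kit v2, which does not mark strand, and sequenced as single 50 bp reads, per the labels' protocols. The authors deposited raw counts per Ensembl gene, not normalised. The tools listed in the submitters' processing notes are cutadapt 1.8.1, CASAVA (1.8 and 1.8.2) and DESeq2, with the mm10 build; aligner, counter and annotation release were not given in the sources used here. Symbols were matched to the Ensembl gene IDs through a reference list of gene names, and coordinates came from the RefSeq annotation of GRCm38.p6. The 24 small RNA libraries were not used.

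All 18 libraries entered 1 fit: edgeR 4.0.16 (R 4.3.3), TMM scaling, the edgeR expression filter with a minimum count of 10, group and batch as terms, and the robust quasi-likelihood test, adjusted by Benjamini-Hochberg over 17892 genes. All 10 markers passed the filter. Alternatives were DESeq2 1.42.0, its size factors, no filter, no batch term, the set as a block, fewer groups or batches, and leaving out each library. Depth was 16274937 to 36835780 counts a library. CPM carry TMM factors. Fits for each batch and the likeness to rising or falling markers were chosen after seeing the data.

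The markers and lists were chosen with earlier results of these data known. From each list the 2 called genes with the largest change in each direction and a mean of at least 1 CPM could be named, and the 10 genes most like the markers; other genes named for the makeup of the cultures were chosen after their values were seen. Set numbers were taken from the labels. Same-numbered libraries deviated together from their group means, with correlations of 0.191 to 0.627 in every pair and comparison. Each such pair also shares a batch, and batch was not removed, so these values cannot tell pairing by set from batch. One result is not reported here. A fit with the set as a replicate block called 6 markers after BDNF and none in the EV comparisons, as did the fit with batch.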

Additional observations from a re-analysis of the deposited data

Results flagged for a closer look

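The control library of set 6 held 395 CPM of *Gfap*, far below the other 5 controls, the nearest of which held 722 CPM. It is the only control of batch d, and its BDNF partner held 372 CPM. Of 20 groups looked at, this 1 stood out, and chance gives about 1 in 20. The BDNF effect on *Gja1* differed between batches b and c by 0.672 on the log2 scale, by a test of the difference itself.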

How the results depend on the processing

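Without the batch term 0 of 10 markers and 843 genes were called after BDNF. Batches a and b alone called 2 markers and 1064 genes, batch b alone 3 and 833, and batch c alone 4 markers and 1213 genes. The calls lost in batches a and b alone were *Gfap* (−0.31, edgeR adjusted p = 0.0515), *Aqp4* (−0.19, 0.0687), *Acsbg1* (0.14, 0.374) and *Fgfr3* (0.099, 0.398). Leaving out 1 library gave 5 to 6 markers and 1793 to 2406 genes. Leaving out either library of set 6 removes batch d from the contrast. In control EV against control, the fit without the filter on low counts called 1 marker and 38 genes, that without the batch term 2 genes, and leaving out 1 library 0 markers and 3 to 7 genes. In BDNF EV against control, 1 marker was called without the filter (156 genes), by DESeq2 (33 genes) and with the 2 groups alone (269 genes). The fit without the batch term called 2 genes there, batches a and b 12, batch b alone 114, and leaving out 1 library 0 markers and 4 to 6 genes. In BDNF EV against control EV, 1 marker and 167 genes were called without the filter, 3 genes by DESeq2, 118 in batch b alone, and 0 markers and 0 to 1 gene with 1 library left out. Beside the calls named in the text, the replicate block changed no marker call. The cause of these differences was not tested.

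None of the values that changed sign was called in the fit as reported. After BDNF these were *Slc1a3* (−0.0080 in batch b alone), *Ntsr2* (0.018 in batch c alone, 0.015 in the fit by batch) and *Aldoc* (−0.075 in batches a and b, −0.11 in b alone, −0.055 and −0.087 for a and b in the fit by batch). In control EV against control they were *Gfap* (0.030 without batch), *Acsbg1* (−0.061 without batch, −0.019 with 2 groups, −0.022 in batches a and b, −0.066 in b alone) and *Aldoc* (−0.015 in b alone). In BDNF EV against control they were *Gja1* (−0.071 with 2 groups, −0.074 in a and b, −0.12 in b alone) and *Aldoc* (−0.019 in b alone), and in BDNF EV against control EV *Aldoc* (0.017 without the filter).

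With 1 library left out, log2 fold changes that turned sign ranged as follows. In control EV against control *Aqp4* ran from −0.017 to 0.073, *Acsbg1* from −0.017 to 0.066 and *Slc1a3* from −0.050 to 0.027. In BDNF EV against control *Fgfr3* ran from −0.11 to 0.012, *Slc1a2* from −0.016 to 0.058 and *Slc1a3* from −0.12 to 0.017. In BDNF EV against control EV *Acsbg1* ran from −0.019 to 0.20, *Slc1a3* from −0.10 to 0.040 and *Aldoc* from −0.055 to 0.047. Levels per transcript length were not run, since no exon lengths were used here.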

Other observations

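The genes closest to the 3 markers that rose after BDNF (*Aldh1l1*, *Acsbg1* and *Fgfr3*, averaged with batch means removed over the 18 libraries) differ from those closest to all 10. This ranking was made after the calls were seen, and genes that rose after BDNF share that rise with the markers. First came *Spag5* (r = 0.947), a mitotic spindle gene, then *Ddx11*, *Grhpr*, *Ckap2* (0.933), *Nde1*, *Pole*, *Birc5* (0.928), *Wee1*, *Smc2* and *Plk1* (0.92). *Ckap2*, *Birc5*, *Nde1* and *Plk1* act in the mitotic spindle or in chromosome segregation, *Smc2* in chromosome condensation, *Pole* in DNA replication and *Wee1* at the entry into mitosis. *Plk1* rose after BDNF by 0.87 on the log2 scale (edgeR adjusted p = 2.12e-07), *Birc5* by 0.68 (1.17e-05) and *Ckap2* by 0.62 (1.49e-07).

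The genes closest to the 3 markers that fell (*Gja1*, *Gfap* and *Aqp4*) were *Ddx19b* (r = 0.921), *Pdyn* (0.918), *Cdk11b*, *Igfbp5* (0.911), *Hs3st1*, *Naaa*, *Snhg12*, *Snhg1*, *Klhl13* and *1190002N15Rik*. This ranking too was made after the calls were seen, and genes that fell after BDNF share that fall with the markers. *Pdyn*, the gene of the opioid peptide precursor prodynorphin, which hippocampal granule neurons are known to express, changed by −0.27 after BDNF (edgeR adjusted p = 0.013). *Igfbp5*, a binding protein of insulin-like growth factors, changed by −0.30 (edgeR adjusted p = 9.26e-05). *Ddx19b* (−0.093, edgeR adjusted p = 0.104) and *Snhg12* (−0.20, 0.0556) did not pass the test.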
